A study of Homo sapiens with 6 samples.

Results

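The human microRNAs (miRNAs) hsa-miR-19a and hsa-miR-19b share one seed, and hsa-miR-25, hsa-miR-32, hsa-miR-92a and hsa-miR-363 share another. These 6 assays were taken by name from the 377 human miRNA assays of a quantitative PCR card, and all 6 gave a value in all 6 samples. The samples were HEK-293FT cells, a quickly dividing line derived from human embryonic kidney that expresses SV40 large T antigen. Of these, 3 had received small interfering RNAs against TruB1, a pseudouridine synthase that modifies transfer RNA, and 3 were controls whose treatment is described no further. Each sample carries a series number from 1 to 3, whose meaning is not stated. The labels do not say whether the samples of a group came from separate cultures, so the p-values measure only the spread between these samples. The level of TruB1 was not analysed here.

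A miRNA guides Argonaute to messenger RNAs that pair with its seed, bases 2 to 8 from the 5′ end, so miRNAs with the same seed share many predicted targets. Much of the oncogenic activity of the miR-17-92 cluster is carried by miR-19. Known targets of the miR-25/92 seed include the apoptosis inducer BCL2L11 (BIM). Most members are cut from polycistronic transcripts that are induced by MYC or by E2F factors and are abundant in dividing cells.

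The mature sequences targeted by the assays are shown because the seed, in capitals, defines the families and the remaining bases are what the assays must tell apart. Each is the deposited target sequence and was identical to the RefSeq mature miRNA (GRCh38.p14).

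miR-19a: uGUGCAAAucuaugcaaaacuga
miR-19b: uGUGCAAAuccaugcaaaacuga
miR-25: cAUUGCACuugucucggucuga
miR-92a: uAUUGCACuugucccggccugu
miR-32: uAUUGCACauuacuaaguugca
miR-363: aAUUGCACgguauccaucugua
miR-367: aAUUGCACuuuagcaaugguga

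With positions counted from 1 at the 5′ end, miR-19b differs from miR-19a by U11C alone, in the centre of the molecule. How far these assays cross-detect each other was not tested. Relative to miR-92a, miR-25 carries U1C, C14U, C18U and U22A, while miR-32 differs at 11 of 22 positions and miR-363 at 12. No member differs from its family within the seed. The embryonic stem cell miRNA miR-367, not a member of the set, is the only other human assay on the card with the miR-25/92 seed, and it was undetermined in all 6 samples. No other assay carries the miR-19 seed. The seed sums given below are of the measured members only, and a miRNA absent from the card is not in them.

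The members come from 4 loci. On chromosome 13, plus strand, miR-19a (91350939 to 91350961), miR-19b (91351245 to 91351267) and miR-92a (91351361 to 91351382) lie within the non-coding gene MIR17HG, the host of the miR-17-92 cluster. On chromosome X, minus strand, miR-363 (134169382 to 134169403), a second copy of miR-92a (134169544 to 134169565) and a second copy of miR-19b (134169683 to 134169705) belong to the miR-106a-363 cluster. Both copies of miR-19b have the same mature sequence, as do both copies of miR-92a, so their assays sum the 2 clusters. Within MCM7, which encodes a replicative helicase subunit, miR-25 (chromosome 7, 100093571 to 100093592, minus strand) forms a cluster with miR-106b and miR-93. The remaining member, miR-32 (chromosome 9, 109046272 to 109046293, minus strand), has no cluster partner and lies within TMEM245. Coordinates are RefSeq's on GRCh38.p14.

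**Figure D1:**
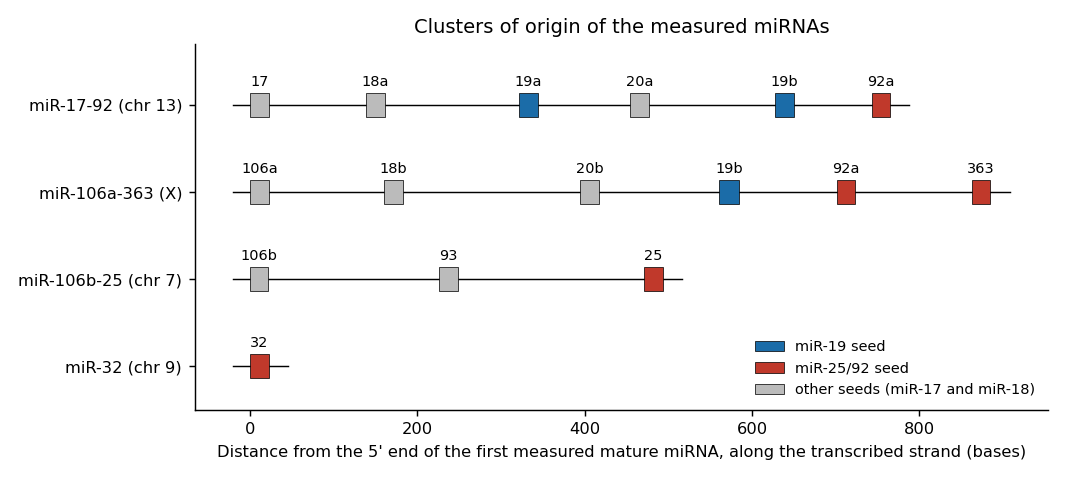
Position of each measured mature miRNA, as distance in bases along the transcribed strand from the first one of its locus; blue boxes carry the miR-19 seed, red boxes the miR-25/92 seed and grey boxes other seeds. The boxes for miR-19b and miR-92a appear in both the chromosome 13 and the X cluster, whose 6 measured miRNAs span 765 and 885 bases.

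Per the labels, 1000 ng of total RNA was reverse transcribed with pooled miRNA primers and amplified for 40 cycles. The raw value is the threshold cycle (Ct), which is lower the more template a well holds. With full efficiency, 1 cycle corresponds to a 2-fold difference. A Ct under 35 was found for 188 to 226 assays per sample. The mean Ct of U6, the small nuclear RNA used as reference, ran from 12.2 to 15.4 over the samples and rested on 2 to 4 wells. The U6 wells of a sample differed by 0.357 cycles (knockdown 3) to 2.77 cycles (control 1). In control 3, with 2 wells determined, they differed by 1.82 cycles. Each sample's ratios shift together with its U6 value. Of 12 miRNAs typical of liver, muscle or blood, 11 were on the card. Of these 11, miR-122, miR-208 and miR-142-5p were undetermined in every sample, and only miR-133a had a Ct under 35 in all 6. In at least 1 sample, 7 of the 11 had a Ct under 35. Besides miR-133a these were miR-142-3p and miR-223 in 5 samples, miR-1 in 3, and miR-133b, miR-208b and miR-150 in 2. The lowest Ct among them was 27.9, for miR-133a, so miRNAs of other lineages were not absent. The summed ratio to U6 of those determined among the 11 was 2.61e-05 to 0.000105 in control and 1.92e-05 to 0.000100 in knockdown. Of the 11, 5 to 8 were undetermined per sample and added nothing, so the sums do not rest on the same assays. No miRNA that defines HEK-293FT cells was checked.

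The miR-19 assays were among the earliest of the card, and the miR-25/92 assays ranged from early to late. Ranked by Ct among the 198 to 228 assays determined per sample, miR-92a stood at 13 to 34 in 5 samples and at 107 in knockdown 1. The ranks were 36 to 74 for miR-25, 104 to 130 for miR-32 and 144 to 192 for miR-363. By mean Ct over the 6 samples the order was miR-19b (16.9 ± 0.968), miR-19a (19.4 ± 0.910), miR-92a (23.7 ± 2.23), miR-25 (25.3 ± 1.31), miR-32 (28.9 ± 1.09) and miR-363 (31.7 ± 1.50; SD, n = 6). This is an order of Ct values, since different assays can amplify with different efficiency.

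Among all assays of a sample, miR-19b had the lowest Ct in control 1, knockdown 1 and knockdown 2, and ranked 2 or 3 in the others. Its Ct was 16.2, 17.3 and 15.9 in controls 1, 2 and 3 and 16.02, 17.8 and 18.0 in knockdowns 1, 2 and 3. The group values overlapped, with a mean of 16.5 ± 0.766 in control and 17.3 ± 1.11 in knockdown (SD, n = 3). For miR-19a the Ct was 17.9, 19.3 and 19.5 in controls and 19.3, 20.01 and 20.6 in knockdowns, ranking between 5 and 10. Control 1 was the sample with the most miR-19a, and the groups overlapped here too.

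Within a sample, miR-19a crossed the threshold 2.55 ± 0.768 cycles (SD, n = 6) after miR-19b, and did so in 6 of 6 samples. The gap ran from 1.68 cycles in control 1 to 3.62 in control 3. If both assays amplified equally, miR-19b would make up 76.2%, 79.9% and 92.5% of the miR-19 seed sum in controls and 90.9%, 81.8% and 85.3% in knockdowns. The lowest and the highest share were both in control samples.

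The earliest assay of the miR-25/92 seed in 5 of the 6 samples was miR-92a, the last member of the miR-17-92 cluster. Its Ct was 22.1, 22.4 and 22.5 in controls, a mean of 22.3 ± 0.241 (SD, n = 3). In knockdowns 2 and 3 it was 23.1 and 23.8, and in knockdown 1 it was 28.04. That sample placed miR-92a at rank 107 of 228 determined assays, against ranks 13 to 34 in the other samples.

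Encoded within MCM7, miR-25 had a Ct of 24.4, 25.1 and 25.4 in controls and 23.6, 26.2 and 27.3 in knockdowns. Knockdown 1 thus had the lowest and knockdown 3 the highest Ct of miR-25, so the knockdown values enclosed those of the controls. For miR-32, the member without a cluster, the Ct was 28.01, 28.8 and 27.6 in controls and 28.5, 30.6 and 29.5 in knockdowns. The X-linked miR-363 was the latest member, at 30.7, 32.7 and 30.7 in controls and 29.7, 32.8 and 33.4 in knockdowns, nearest to the limit of 35 used in the filter.

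Of the neighbours in the order of Ct, miR-92a and miR-25 were the pair that did not differ beyond the spread over samples. On average miR-25 came 1.66 ± 3.03 cycles (SD, n = 6) after miR-92a, and in knockdown 1 it came 4.48 cycles before it. Without knockdown 1 the difference was 2.89 ± 0.449 cycles (SD, n = 5), which exceeds its spread. The other neighbours kept their order in 6 of 6 samples: miR-92a followed miR-19a by 4.23 ± 2.24, miR-32 followed miR-25 by 3.54 ± 1.11, and miR-363 followed miR-32 by 2.79 ± 1.05 cycles (SD, n = 6).

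The make-up of the miR-25/92 seed sum shows the same exception, again under equal amplification. The share of miR-92a was 82.0%, 85.3% and 85.5% in controls, 89.1% and 90.3% in knockdowns 2 and 3, and 4.12% in knockdown 1. In knockdown 1, miR-25 made up 91.7% of the sum, against 7.97% to 16.4% in the other samples. The shares of miR-32 (0.488% to 2.92%) and miR-363 (0.0700% to 1.29%) were small throughout.

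**Figure D2:**
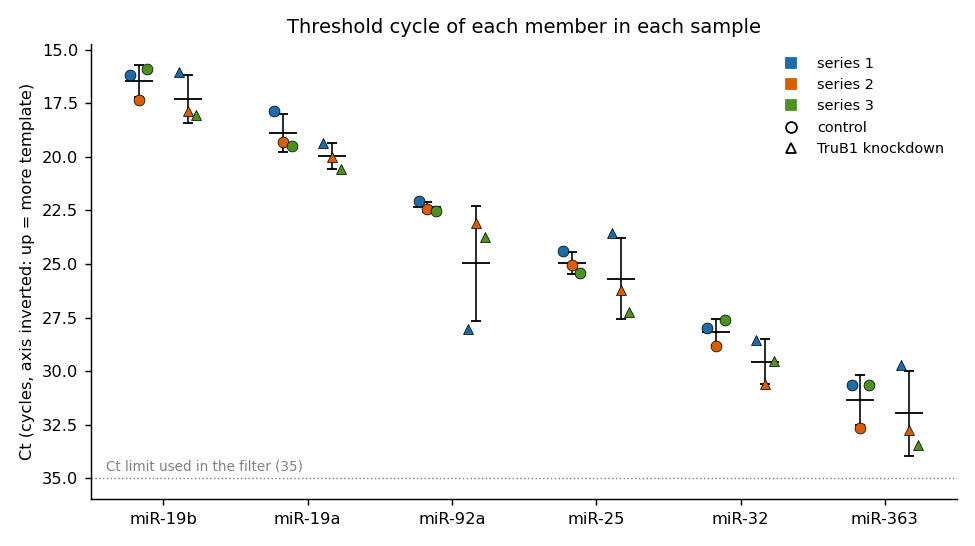
Ct in cycles (inverted axis) of the 6 members in 3 control samples (circles) and 3 knockdown samples (triangles), coloured by series number; horizontal marks and bars are the group mean ± SD (n = 3). The members are ordered by mean Ct from miR-19b (16.9) to miR-363 (31.7), and the triangle of series 1 for miR-92a stands apart at 28.04.

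The question the design poses is whether the members' levels change when TruB1 is depleted. Relative to U6, no member changed beyond the spread between samples. By limma with Benjamini-Hochberg adjustment, 0 of the 6 members reached an adjusted p under 0.05, and 0 had an unadjusted p under 0.05. Over all 195 assays tested the percentage called was likewise 0%, at the adjusted and at the unadjusted threshold. The mean was higher in knockdown for 3 members and lower for 3. Their median log2 change was -0.053, beside -0.096 over all assays tested.

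When the series number entered as a replicate block, again 0 of the 6 members and 0% of the 189 assays then tested passed the adjusted threshold. In that fit 10 assays (5.29%) had an unadjusted p under 0.05, and none of the 6 members was among them.

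On the log2 scale relative to U6, miR-19a was -3.12, -5.35 and -7.35 in controls and -4.46, -4.56 and -7.32 in knockdowns. Both samples of series 3 were low, and the groups overlapped. Those samples also had the lowest mean Ct of U6, 12.2 in control and 13.2 in knockdown. Relative to the mean of the 157 assays under Ct 35 in every sample, miR-19a was lowest in control 3 (6.43). On that scale knockdown 3 (7.06) lay above knockdown 1 (6.84). The mean change of miR-19a, knockdown minus control, was -0.18 (95% confidence interval -3.08 to 2.73, limma adjusted p = 0.999). The values of miR-19b were -1.44, -3.36 and -3.73 in controls and -1.15, -2.40 and -4.78 in knockdowns, again overlapping. Its mean change was 0.069 (95% confidence interval -2.82 to 2.96, limma adjusted p = 0.999). Neither direction was stable: miR-19a was higher in knockdown, by 0.28, after quantile normalization, and by raw Ct miR-19b was lower, by -0.84, where the median of all assays was -1.0.

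For the miR-25/92 seed, miR-25 was -9.66, -11.09 and -13.26 in controls and -8.68, -10.77 and -14.01 in knockdowns on the log2 scale relative to U6. Its mean change was 0.18 (95% confidence interval -2.73 to 3.10). The values of miR-32 were -13.28, -14.85 and -15.48 in controls and -13.66, -15.17 and -16.29 in knockdowns, with a mean change of -0.502 (95% confidence interval -3.38 to 2.38). Those of miR-363 were -15.93, -18.70 and -18.51 in controls and -14.83, -17.31 and -20.20 in knockdowns, with a mean change of 0.27 (95% confidence interval -2.65 to 3.18). In all 3 the groups overlapped, and each had a limma adjusted p of 0.999. By raw Ct, miR-25 and miR-363 were lower in knockdown, by -0.72 and -0.64.

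The value of miR-92a relative to U6 was -7.34, -8.45 and -10.38 in controls and -13.16, -7.66 and -10.51 in knockdowns, on the log2 scale. Knockdown 1 was below every control, and knockdowns 2 and 3 lay within or close to the control range. The mean change of -1.72 (95% confidence interval -4.63 to 1.20, limma adjusted p = 0.999) became -0.36 without knockdown 1. In the fit with the replicate block, leaving out series 3 brought miR-92a to -2.51 with an adjusted p of 0.00453 in limma, where 3.43% of 175 assays were called. That fit gave all 6 members the same SE of 0.605, beside 1.17 for miR-92a in the block fit with all series. Its p therefore does not rest on the spread of miR-92a itself, whose changes in series 1 and 2 were -5.82 and 0.79. Leaving out series 1 turned the direction of miR-92a, to 0.33. By raw Ct the 3 knockdown values of miR-92a lay above the 3 control values, as was so for 14.9% of the 161 assays determined in every sample, either direction counted. Relative to U6 this share was 0%.

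Within series 1, miR-92a had the largest decrease of all 189 assays, -5.82 on the log2 scale, or 0.0177 of the control ratio. The second largest decrease in that series was -2.5002. In series 2 and 3 the change of miR-92a was 0.79 and -0.13, at rank 124 of 177 and 127 of 179 from the lowest, inside the quartiles of all tested assays. With a single well per sample, the error of the well in knockdown 1 cannot be told apart from a difference in that sample.

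The remaining members were read within series number against all tested assays, whose median change was -0.21, 0.32 and -0.51 in series 1, 2 and 3. The change of miR-19a was -1.34, 0.79 and 0.029, so it was below the series median in series 1 and above it in the other series. That of miR-19b was 0.30, 0.96 and -1.05, above the median in series 1 and 2 and below it in series 3. Although their sequences differ by 1 base, the miR-19 pair thus lay on the same side of the median in series 2 only.

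The change of miR-25 was 0.98, 0.33 and -0.75, and that of miR-363 was 1.10, 1.39 and -1.69. These 2 members and miR-19b shared the sign of their change in each series. Among the 6 members, only miR-32 was lower in knockdown in all 3 series, by -0.38, -0.32 and -0.81, which 19.3% of 161 assays were. It was also below the series median each time, as were 13% of those assays.

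A decrease of more than 2-fold was found for miR-19a and miR-92a in series 1, where 13.2% of tested assays were that much lower, and for miR-19b and miR-363 in series 3, where 27.9% were. An increase of more than 2-fold was found for miR-363 in series 1 and 2, where 7.41% and 20.3% of tested assays were that much higher. These are changes between single samples, with no replicate.

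**Figure D3:**
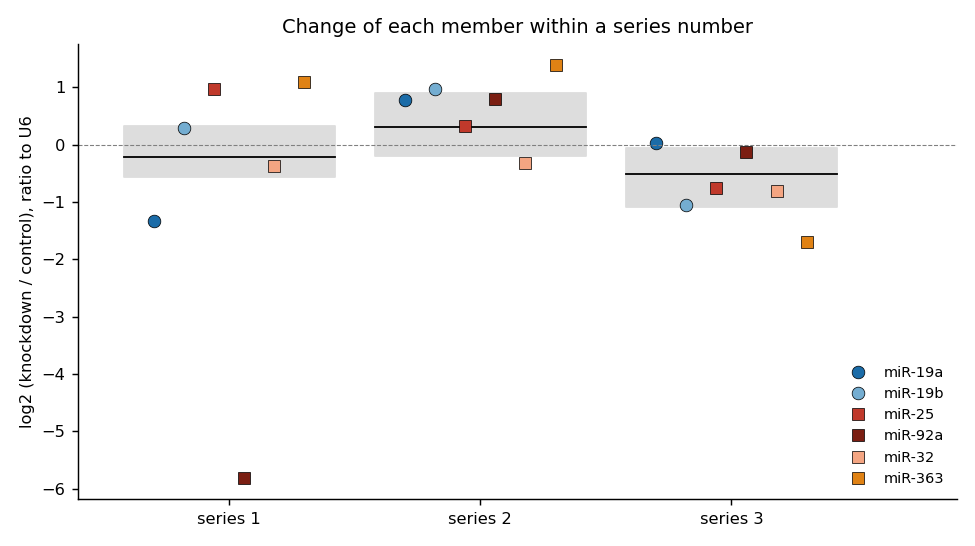
The log2 ratio of knockdown over control, each relative to U6, for the 6 members within series 1, 2 and 3; the grey band spans the quartiles and the black line is the median of all tested assays (189, 177 and 179). Apart from miR-92a in series 1, at -5.82, the members lay between -1.69 and 1.39, with medians of -0.21, 0.32 and -0.51 for all assays.

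The clusters of origin were compared through the members' partners, miRNAs of the miR-17 and miR-18 seeds that are cut from the same transcripts. By limma, 0 of the 8 partners rose and 0 fell at an adjusted p under 0.05, with or without the block, and 0 had an unadjusted p under 0.05 in either fit. Their median log2 change was -0.15, with 2 higher and 6 lower means. Over all 195 assays tested the median was -0.096, with 79 higher and 116 lower means.

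Within series 1, miR-19a and its chromosome 13 neighbours miR-17 and miR-20a were lower in knockdown, at -1.34, -1.22 and -1.09 on the log2 scale. From the same cluster, miR-18a was at 0.36. The 4 assays specific to chromosome 13 (miR-17, miR-18a, miR-19a and miR-20a) had a median of -1.15, 0.68 and -0.051 in series 1, 2 and 3. The 4 assays specific to the X cluster (miR-106a, miR-18b, miR-20b and miR-363) had a median of 0.51, 0.65 and -1.52. In series 1 miR-20b was the exception among them, at -1.14 beside -1.09 for miR-20a, and in series 3 miR-106a was, at -0.11. The medians therefore do not hold for each assay of a locus. The chromosome 13 median was the lower in series 1, and the X median was the lower in series 2 and 3. Sequence-similar pairs such as miR-17 with miR-106a and miR-20a with miR-20b may be detected in part by each other's assay, which was not tested.

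In the MCM7 cluster the median of miR-106b, miR-93 and miR-25 was 0.30, 0.20 and -0.84, beside -0.21, 0.32 and -0.51 over all assays tested. Each of the 3 was lower in knockdown in series 3, where 139 of 179 tested assays were.

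Differences in Ct between 2 assays of the same card do not depend on U6. Over the 6 samples, miR-19a lay within 0.490 cycles of miR-20a, its neighbour in the cluster (0.115 ± 0.387, SD, n = 6). Behind miR-17, of the same cluster, miR-19a came by 1.61 to 2.87 cycles (2.24 ± 0.605, SD, n = 6). With miR-19b, which also has a copy in that cluster, miR-19a minus miR-19b was 1.68, 1.99 and 3.62 cycles in controls and 3.31, 2.16 and 2.54 in knockdowns. Its group means of 2.43 ± 1.04 and 2.67 ± 0.586 (SD, n = 3) differed by less than either SD.

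Within MCM7, miR-25 followed miR-93 by 3.63, 3.63 and 3.68 cycles in controls, a mean of 3.64 ± 0.0301 (SD, n = 3). In knockdowns the gap was 2.95, 3.498 and 3.596 cycles (3.35 ± 0.350, SD, n = 3). All 3 knockdown values were below the 3 control values. The difference of -0.297 cycles was smaller than the knockdown SD, and knockdown 1 had the smallest gap. The share of all assay pairs with groups separated in this way was not counted. The pair was chosen after the values had been seen. With miR-106b, the other partner in MCM7, the gap was 2.91, 2.26 and 3.15 cycles in controls (2.77 ± 0.461, SD, n = 3). It was 1.35, 1.37 and 2.79 cycles in knockdowns (1.84 ± 0.827, SD, n = 3). The groups overlapped, and within series 1, 2 and 3 knockdown minus control was -1.56, -0.88 and -0.36 cycles.

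The gap between miR-92a and miR-17, at the 2 ends of the chromosome 13 cluster, was 5.83, 5.78 and 5.90 cycles in controls (5.84 ± 0.0640, SD, n = 3). It was 10.4, 4.83 and 6.01 cycles in knockdowns, below the controls in knockdown 2 and above them in knockdowns 1 and 3. The pairs with miR-17, miR-20a, miR-93 and miR-106b were chosen after the values had been seen.

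**Figure D4:**
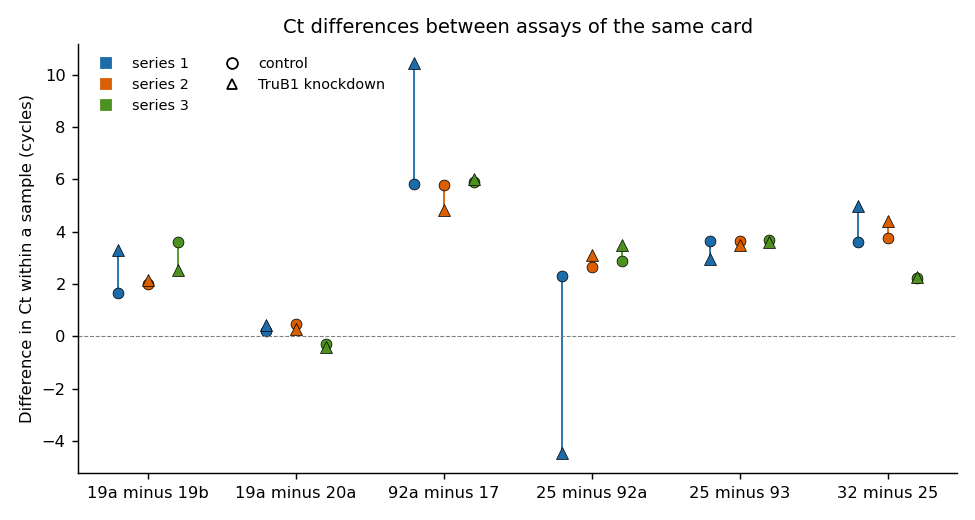
Difference in Ct (cycles) between 2 assays of the same sample, in controls (circles) and knockdowns (triangles), joined within a series number. The lines are short for miR-19a minus miR-20a and for miR-25 minus miR-93, and the longest line is miR-25 minus miR-92a in series 1, from 2.32 to -4.48 cycles. The gap between miR-25 and miR-106b, which changed more than that with miR-93, is not drawn.

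The families were also set against each other within a sample. The mean log2 value of the 4 miR-25/92 members minus that of the 2 miR-19 members was -9.27, -8.92 and -8.87 in controls and -9.78, -9.25 and -9.20 in knockdowns. Pooled over series the groups overlapped, with means of -9.02 ± 0.217 and -9.41 ± 0.321 (SD, n = 3), and the difference of -0.39 was larger than either SD. Within series 1, 2 and 3, knockdown minus control was -0.51, -0.32 and -0.33 (-0.39 ± 0.105, SD, n = 3), lower in knockdown in 3 of 3 series. With the median over members in place of the mean it was -1.42, -0.87 and -0.27, a mean of -0.85. Without miR-92a the values were 1.09, -0.40 and -0.57, a mean of 0.036, higher in knockdown in series 1 and lower in series 2 and 3.

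Summed over members under equal amplification, the miR-19 seed exceeded the miR-25/92 seed 64.2-, 36.4- and 93.2-fold in controls and 187-, 41.7- and 56.2-fold in knockdowns. Knockdown 1 was highest, and the other 5 samples overlapped. Within series 1, 2 and 3 the miR-19 sum in knockdown was 1.03, 1.90 and 0.522 of that in control. The miR-25/92 sum was 0.353, 1.66 and 0.866 of that in control.

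For each member, the assay with the nearest profile was sought among 155 other assays determined in every sample. The measure was the root mean square difference, over the 6 samples, of centred log2 values relative to the 157 assays under Ct 35 in every sample. The nearest profiles were miR-21 for miR-19a (0.29), miR-491 for miR-19b (0.18), miR-15a for miR-25 (0.20), miR-425-5p for miR-32 (0.11) and miR-148a for miR-363 (0.23). The second nearest were miR-503 for miR-19a (0.35), miR-365 for miR-19b (0.18), the cluster partner miR-93 for miR-25 (0.25), miR-598 for miR-32 (0.21) and miR-27a for miR-363 (0.25). The corresponding medians over the 155 assays were 0.81, 0.69, 0.92, 0.61 and 1.07. For miR-92a the nearest profile was miR-885-5p at 1.66 and the second miR-107 at 1.72, beside a median of 2.30. Among the members themselves, the 7 pairs with the same seed were 0.697 to 2.92 apart (median 1.02), and the 8 pairs of different seeds 0.49 to 2.40 (median 0.81). The closest pairs of the same seed were miR-25 with miR-363 (0.697) and miR-19a with miR-19b (0.701), and those of different seeds were miR-19b with miR-32 (0.49) and miR-19b with miR-363 (0.58). The 5 pairs that included miR-92a were 2.04 to 2.92 apart.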

How the data were processed

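The deposited raw table holds Ct values per well, and the authors' processed table holds the ratio of each assay to U6. Averaging the determined U6 wells, subtracting the assay's Ct and raising 2 to that difference gave the deposited ratio to within 6.77e-06 on the log2 scale. Threshold and baseline settings are not given in the sources used here. The log2 of the deposited ratio was compared between groups by two-sided limma (version 3.58.1 under R 4.3.3, lmFit then eBayes, no other term, Benjamini-Hochberg adjustment). An assay was tested with a Ct under 35 in at least 3 samples and a value in at least 2 samples per group; undetermined wells were missing. Sequences and coordinates were matched by miRBase name to RefSeq (all 6 members). The model was run on simulated data to check the size of the changes it returned. Its power and false calls in that simulation are not given here.

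Series numbers were taken to pair samples, which rests on the values, no label saying so: deviations from group means over 161 complete assays correlated at r = 0.416, 0.527 and 0.625 for equal numbers and at most 0.249 otherwise.

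Members, cluster partners and lists were chosen with earlier results of these data known. Named assays were the members, their cluster partners and the 2 nearest profiles of each member. Alternatives were other references, filters, settings for undetermined wells, the block and left-out samples. The deposited fold-change table was not used, since the ratios give the same quantity.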

Additional observations from a re-analysis of the deposited data

How the results depend on the processing

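By limma, 0 assays had an adjusted p under 0.05 under all alternatives with all 6 samples, the replicate block included (0 to 13 at an unadjusted p under 0.05), and under the 6 fits that left out 1 sample. Leaving out whole series from the fit with the replicate block gave counts from 0 to 6. The value of 6, without series 3, included miR-92a, at -2.51 (adjusted p = 0.00453; 3.43% of 175 assays called). That fit gave all 6 members the same SE of 0.605, so its p does not rest on the spread of miR-92a itself. Without series 1 miR-92a was at 0.33. The block changed no other call of a member.

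Of 36 changes of single members with 1 sample left out, 14 reversed. The lowest and highest log2 changes were -1.21 and 0.90 for miR-19a, -0.75 and 1.07 for miR-19b, -1.05 and 1.61 for miR-25, -1.19 and 0.13 for miR-32, -3.11 and -0.36 for miR-92a and -1.04 and 1.64 for miR-363. With the replicate block and 1 series left out, 7 of 18 reversed, with ranges of -0.66 to 0.41 (miR-19a), -0.38 to 0.63 (miR-19b, -0.046 without series 1), -0.21 to 0.65 for miR-25, -2.97 to 0.33 for miR-92a and -0.298 to 1.25 for miR-363 (-0.15 without series 1). The remaining settings gave 60 values, of which 4 reversed, namely 0.28 with quantile normalization for miR-19a and, by raw Ct, -0.84 for miR-19b, -0.72 for miR-25 and -0.64 for miR-363. The cause was not tested, except that without a reference the median of all assays moved to -1.0.

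The family difference within a sample (-0.39) ran from -0.51 to -0.20 with 1 sample left out. It was -0.85 with the median over members and 0.036 without miR-92a. The gap between miR-25 and miR-92a (1.66 cycles) ran from 1.29 to 2.89 with 1 sample left out, an alternative added after seeing the data. No depth is known behind a Ct, and each member has 1 well per sample.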
